A study of Cichorium intybus with 5 samples.

Results

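RPT6, PAB1 and an E3 ubiquitin ligase are 3 chicory genes of the ubiquitin-proteasome system that were represented on the cDNA microarray by the clones E001E6, N102E10 and N104F8. They were picked by clone name, as 3 of the 2112 probes in the deposited table, and are among the genes that the study named for their values in these comparisons. Leaf explants of K59, an embryogenic genotype, and of C15, a non-embryogenic genotype obtained by selfing K59, were taken from 2-month-old in vitro plantlets. Explants were either not cultured (d0) or cultured for 4 days (d4) in the dark at 35°C in medium that induces somatic embryogenesis (SE), without β-Glc Y (Y-) or with 250 µM of it (Y+). β-Glc Y is the glucosyl Yariv reagent, a synthetic dye that binds arabinogalactan-proteins. The explants are whole leaf pieces in which only some cells respond to induction, and no inactive Yariv analogue was included as a control. The medium, the darkness, the temperature and the time since excision were not varied separately between d0 and d4. The d4 vs. d0 values, called induction here, therefore hold the effects of all of them.

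Each value is a log2 ratio between a pair of conditions, so that 1 is a doubling and -1 a halving. Per the study's methods, each pair was hybridized with biological replicates and dye swaps, which the deposited value combines. There are 5 comparisons, namely d4 vs. d0 within K59 and within C15, Y+ vs. Y- at d4 within each genotype, and K59 vs. C15 at d0. A probe has only 1 deposited value in each of them, so the spread between replicates cannot be seen. No test was made here, and how precise a value is cannot be said from it. The study itself filtered genes by a false discovery rate over its repetitions. It also checked selected genes by quantitative RT-PCR, RPT6 among them but not PAB1 or the E3 ligase. It reported no significant difference from the microarray, which does not show that the values are equal. The number of probes with a value ranged from 492 at d0 to 1260 for C15 Y+ vs. Y-. Per the study, the probes were preselected from subtractive libraries of K59 and C15 at d4. Shares, ranks and medians over probes therefore do not describe an unselected set of genes. The study counts fewer unique genes on the array than the deposited table has probes, so some probes may represent the same gene. A probe is said to pass the threshold upwards from a log2 ratio of 1 and downwards from -1. All 3 genes had a value in all 5 comparisons.

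Proteins are marked for degradation by a chain of enzymes. An E2 enzyme carries activated ubiquitin, and an E3 ligase joins it to the chosen target. The marked protein is then unfolded by a ring of AAA ATPases (the RPT subunits) in the cap of the 26S proteasome and cut in the chamber of its 20S core, whose outer rings are made of alpha subunits. In plants this route removes regulators of hormone signalling and of the cell cycle. RPT6 is an ATPase of the cap. PAB1 is an alpha subunit of the core and, despite its symbol, not a poly(A)-binding protein. The ligase belongs to the enzymes that choose the target, and its own target in chicory is not given in the sources used here.

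**Figure D1:**
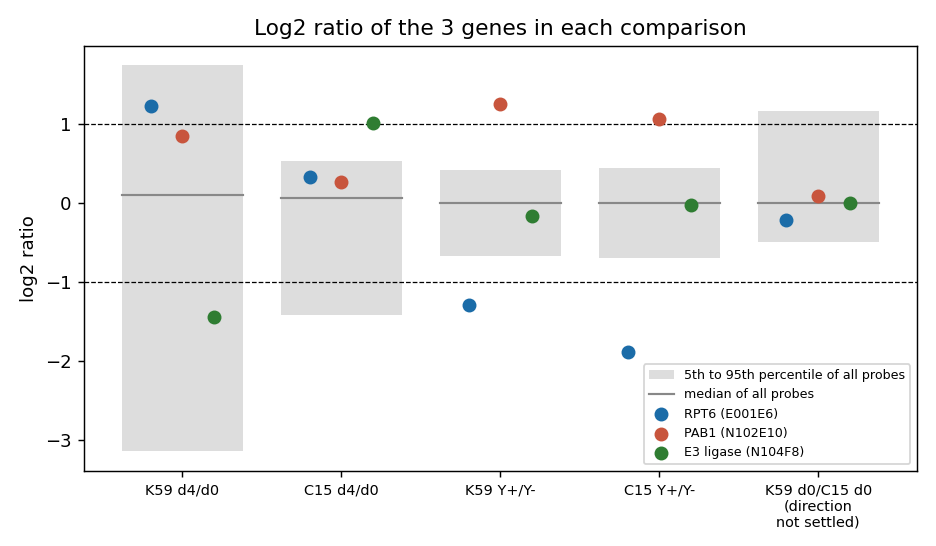
Log2 ratio (y axis) of RPT6, PAB1 and the E3 ligase in the 5 comparisons (x axis), 1 deposited value each with no error. Grey bars span the 5th to 95th percentile of all probes, grey lines are their medians and dashed lines the threshold. Under β-Glc Y, RPT6 (-1.29 and -1.89) and PAB1 (1.25 and 1.06) lie outside the bars on opposite sides, whereas under induction of K59 all 3 genes lie inside the bar.

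RPT6 was higher after 4 days of induction in K59, with a log2 ratio of 1.23, which is a 2.35-fold difference. In C15 its log2 ratio was 0.33. In the presence of β-Glc Y it was lower in both genotypes, at -1.29 in K59 and -1.89 in C15, or 2.45-fold and 3.71-fold lower than without the reagent. Values of -1 or below in both genotypes were found for 1.72% of the 1044 probes with both. Only 1 of the 1201 probes in K59 and none of the 1260 in C15 had a lower value. The threshold was passed downwards by 2% of probes in K59 Y+ vs. Y- and by 3.81% in C15 Y+ vs. Y-. Among the 467 probes with all 5 values, RPT6 included, 23 passed it downwards in K59 and 43 in C15, a larger share. In K59 d4 vs. d0, by contrast, 17.3% of probes passed it upwards, and 91 of 867 probes had a higher value than RPT6. In that comparison RPT6 was therefore well within the range of many other probes.

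The response of RPT6 to both steps can be added up, because d4 without β-Glc Y is the numerator of induction and the denominator of the Yariv comparison. The indirect log2 ratio of 4 days with β-Glc Y over d0 was -0.06 in K59 and -1.56 in C15. In K59 the decrease with the reagent was thus about as large as the increase with induction, and in C15 it was larger. Between the genotypes, the induction ratio was higher in K59 by 0.90 and the Yariv ratio was higher (less negative) in K59 by 0.60. For induction, 121 of the 811 probes with both values had a larger difference in favour of K59, and for 13.7% it reached 1. For β-Glc Y, 12 of 1044 probes had a larger difference in favour of K59, differences in the other direction left aside. The spread of the probes differed between the genotypes after induction, with a scaled median absolute deviation of 1.13 in K59 and 0.39 in C15 over the 811 probes. In units of that spread, RPT6 stood 0.96 above the median in K59 and 0.83 above it in C15, a difference of 0.13.

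PAB1 differed from RPT6 mainly by its response to β-Glc Y. The reagent gave it a ratio of 1.25 (K59) and 1.06 (C15) on the log2 scale, or 2.38-fold and 2.08-fold higher than without. It was exceeded by 2 of 1201 probes in K59 and by 11 of 1260 in C15, and the threshold was passed upwards by 0.583% and 1.03% of probes. After induction it stayed within the threshold, at 0.84 in K59 and 0.27 in C15. The genotypes differed by 0.57 after induction and by 0.19 with β-Glc Y, with K59 higher in both. In units of the spread of each induction comparison, the positions of PAB1 were 0.61 (K59) and 0.67 (C15) above the median, and the difference took the opposite sign, at -0.06. The indirect ratio of 4 days with β-Glc Y over d0 was 2.09 in K59 and 1.33 in C15, exceeded by 12 of 769 and 9 of 1070 probes.

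**Figure D2:**
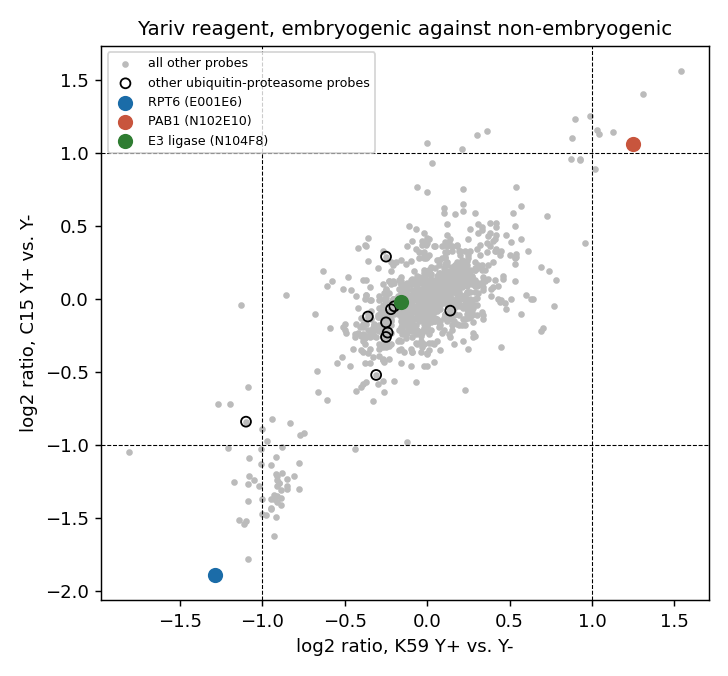
Log2 ratio of Y+ vs. Y- in K59 (x axis) against that in C15 (y axis) for the 1044 probes with both values, 1 point per probe; dashed lines mark the threshold. RPT6 lies at the lower left corner and PAB1 near the upper right, and the E3 ligase (-0.16 and -0.02) lies within the main cloud.

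The E3 ligase passed the threshold at induction, in opposite directions in K59 and C15, and not with β-Glc Y. After 4 days the K59 value was -1.44 and the C15 value 1.01, a 2.71-fold lower and a 2.01-fold higher signal than at d0. In C15 it was exceeded by 15 of 1169 probes, and 1.54% of probes passed the threshold upwards. In K59, where 23.4% of probes passed it downwards, 158 of 867 had a lower value. The difference between the genotypes was -2.45, and 3 of 811 probes had a more negative difference. After subtracting the median of the ligase's plate from each value, the difference was -1.09. A difference of -1 or below was found for 17% of these probes, and 0.493% were past the threshold upwards in one genotype and downwards in the other. With β-Glc Y the values were -0.16 in K59 and -0.02 in C15, close to the median of 0 in both. In units of the spread of each induction comparison, the ligase stood at -1.41 in K59 and 2.59 in C15.

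**Figure D3:**
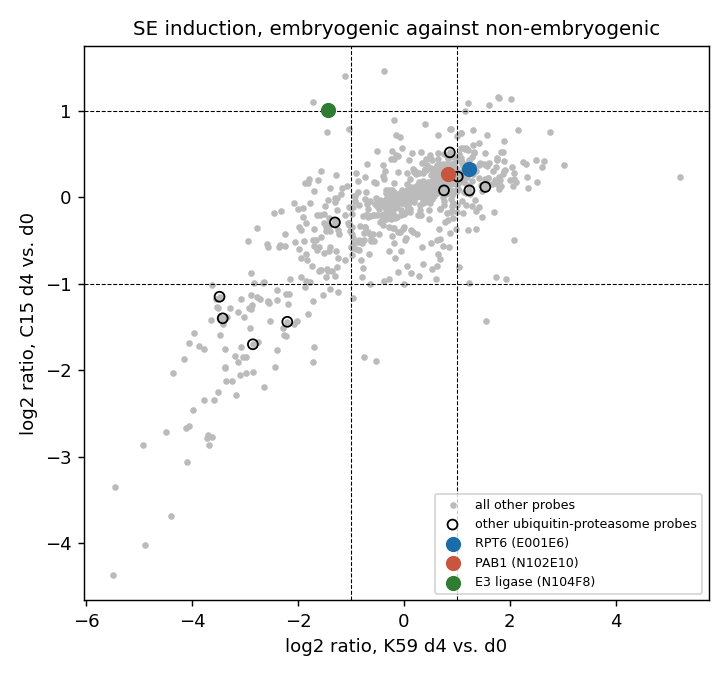
Log2 ratio of d4 vs. d0 in K59 (x axis) against that in C15 (y axis) for the 811 probes with both values, 1 point per probe; dashed lines mark the threshold. The E3 ligase (-1.44 in K59, 1.01 in C15) lies at the upper left, whereas RPT6 (1.23, 0.33) and PAB1 (0.84, 0.27) lie in the dense part of the cloud. Open circles are the other ubiquitin-proteasome probes.

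The value of the E3 ligase in K59 depended on the probes it was set against. The plate of a clone was inferred from the first letter and digits of its name. In K59 d4 vs. d0 the medians of the 22 plates ranged from -1.41 for plate N104 to 0.74 for plate E017. N104 is the plate of the ligase. Within it, 15 of the 29 probes with a value were higher than the ligase and 13 were lower, so that the value after subtracting the plate median was -0.03. In C15 the median of this plate was -0.05, and only 1 of its 44 probes with a value was higher than the ligase, which stood at 1.06 after the subtraction. The plates hold different clones from the subtractive libraries, so a plate median may hold differences of the clones themselves. Whether the plate has a part in the K59 value was not tested.

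RPT6 and PAB1 stood at the edge of their plates with β-Glc Y, a rank that the same subtraction cannot change. RPT6 had the highest K59 induction value of the 36 on plate E001 and, with β-Glc Y, the lowest of 45 in K59 and of 49 in C15. Its values after the subtraction were 1.62, -1.25 and -1.99. In C15 induction RPT6 stood at 0.41 after the subtraction, with 4 of the 51 probes of its plate higher. PAB1 had the highest β-Glc Y value of plate N102 in both genotypes, of 49 probes in K59 and 50 in C15. After the subtraction its value was 1.19 in K59 and 0.99 in C15, the latter just under the threshold. Its K59 induction value became 1.26, past the threshold, with 4 of the 31 probes of its plate higher.

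**Figure D4:**
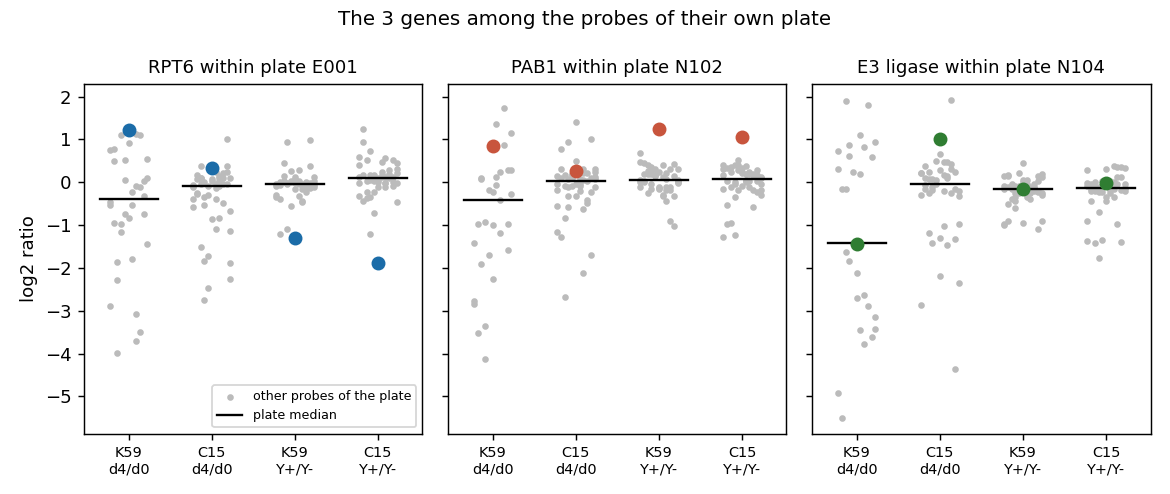
Log2 ratio (y axis) of each of the 3 genes (coloured) and of the other probes of its plate (grey, 1 point per probe) in the induction and β-Glc Y comparisons (x axis); black lines are plate medians. RPT6 and PAB1 lie at the edge of their plates under β-Glc Y, and the E3 ligase lies at the median of plate N104 in K59 d4/d0 (-1.44 against -1.41) but not in C15 (1.01 against -0.05).

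The direct comparison of K59 and C15 at d0 gave small values for all 3 genes, with -0.22 for RPT6, 0.09 for PAB1 and 0.00 for the E3 ligase. None passed the threshold, against 8.13% of the 492 probes in either direction. The order of the ratio, K59 over C15, rests on how the study names the comparison and is not settled. An exact 0.00 is listed for 57 probes of this comparison, and the sources used here do not say whether such values were measured. Passing through d0, the indirect log2 ratio of K59 d4 over C15 d4 was 0.68 for RPT6, 0.66 for PAB1 and -2.45 for the ligase. With the sign of the d0 ratio turned, it was 1.12, 0.48 and -2.45. The ratios in the study's supplement, which were not used here, are not the same as the deposited ones, and they differ most at d0 and next with β-Glc Y, also for the amino acid permease and RNA helicase probes that are named as similar to RPT6. Which version is final is not given in the sources used here.

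A list of 13 probes of the same system, named in the annotation of the study, was set beside the 3 genes, which it includes. The study retained these genes for their values in these hybridizations, so their counts are no independent evidence of a direction. In K59 d4 vs. d0, 4 of the 13 passed the threshold upwards and 6 downwards, against 17.3% and 23.4% of all probes, and in C15 d4 vs. d0 1 passed it upwards and 4 downwards, against 1.54% and 8.3%. The median was 0.76 in K59 and 0.08 in C15, against 0.10 and 0.06 over all probes. Of the upward probes in K59, E017E4, E017B3 and E017D8 lie on plate E017, whose median of 0.74 was the highest of the 22 plates. After subtraction of plate medians they fell within the threshold, whereas PAB1 and E014H11 passed it upwards. The list then had 3 probes up and 5 down in K59. Whether the plate has a part in these values was not tested. The probes past the threshold thus lay on both sides, and they are described by role.

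All 3 proteasome subunits had positive induction values in K59, where the median over all probes was 0.10. RPT5a (E017E4), another ATPase of the same ring as RPT6, stood at 1.24, next to 1.23 for RPT6 and 0.84 for PAB1. In C15 the values of the subunits lay between 0.08 and 0.33. With β-Glc Y the subunits did not move together. RPT5a had -0.20 in K59 and -0.05 in C15. The difference RPT6 minus RPT5a was therefore -1.09 in K59 and -1.84 in C15 on the log2 scale, whereas PAB1 minus RPT5a was 1.45 and 1.11. The gap between RPT6 and PAB1 was the widest of the 3, with RPT6 minus PAB1 at -2.54 in K59 and -2.95 in C15. Differences between probes are differences between ratios and say nothing of which transcript is more abundant. After subtraction of its plate median, RPT5a stood at 0.50 in K59 induction, under the threshold.

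Of the 6 E3 ligases and related proteins, 2 passed the threshold upwards and 2 downwards in K59 d4 vs. d0. Over all probes 17.3% passed it upwards and 23.4% downwards there. A RING/C3HC4/PHD zinc finger protein (E017D8) had 1.54 and a C3HC4-type RING finger protein (E017B3) 1.02. RING fingers are the domains by which many E3 ligases hold the E2 enzyme. The decreases were those of N104F8 and of a RING zinc finger protein (E012B12, -1.30). Another RING finger protein (E014H11, 0.76) and a kelch repeat-containing F-box protein (E017H4, 0.87), an F-box protein being the part of an E3 complex that binds the target, stayed within the threshold. These values moved with the plate, since after subtraction of plate medians E017D8 stood at 0.80 and E017B3 at 0.28, both within the threshold, and E014H11, whose plate had a median of -1.24, stood at 2.00, past it. In C15 d4 vs. d0, N104F8 was the only one of the 6 past the threshold, and the other 5 lay between -0.29 and 0.52. Over all probes 1.54% passed it upwards and 8.3% downwards there. With β-Glc Y none of the 6 passed it, with values from -0.36 to -0.16 in K59 and from -0.26 to 0.29 in C15, and passing it was rare over all probes too (0.583% up and 2% down in K59, 1.03% and 3.81% in C15).

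The E2 enzymes and the polyubiquitin genes, which encode ubiquitin itself, were lower after induction in both genotypes. UBC9 (E015H1) had -3.42 in K59 and -1.40 in C15, and the other ubiquitin-conjugating enzyme (E010G5) -3.48 and -1.15. The polyubiquitin probes had -2.20 (E017D10) and -2.85 (N102D1) in K59, and -1.44 and -1.70 in C15. All 4 passed the threshold downwards in both genotypes, as did 10.9% of the 811 probes with both values. They stood on the opposite side of 0 from the proteasome subunits in both genotypes. In C15, however, the subunits lay only between 0.08 and 0.33, against a median of 0.06 over all probes. RPT5a stood at -0.05 there after subtraction of its plate median. With β-Glc Y only UBC9 passed the threshold, at -1.10 in K59, with -0.84 in C15. It was the only probe of the list besides RPT6 that passed it downwards with the reagent in either genotype.

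**Figure D5:**
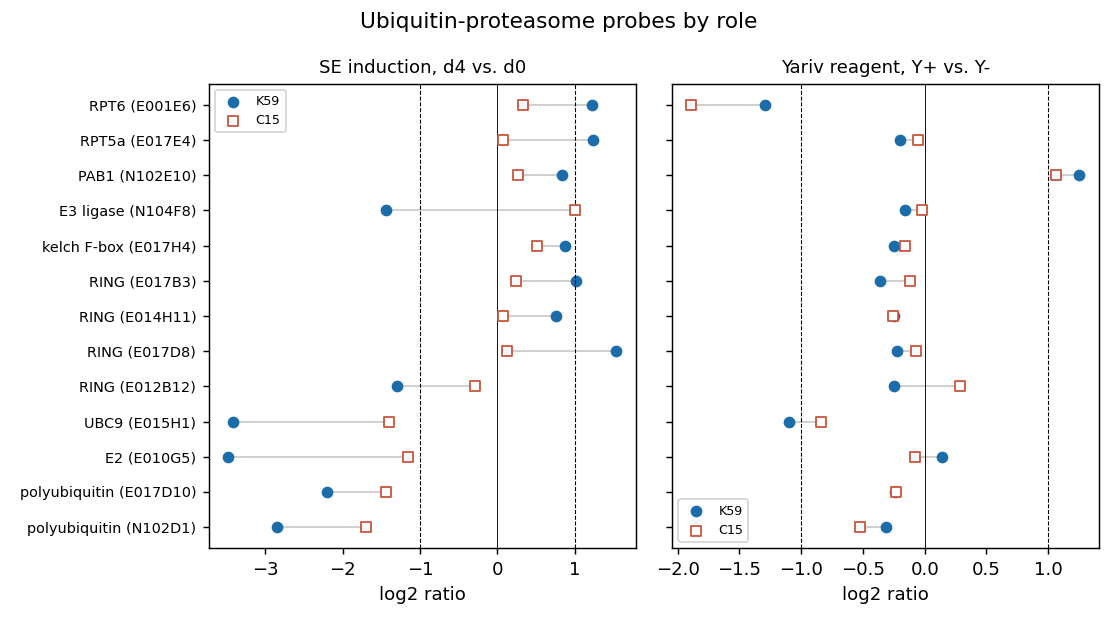
Log2 ratio (x axis) of the 13 ubiquitin-proteasome probes (y axis, ordered by role: proteasome subunits, E3 ligases, E2 enzymes, polyubiquitin) for induction (left) and β-Glc Y (right). Circles are K59 and squares C15, 1 deposited value each; dashed lines mark the threshold. At induction the subunits lie right of 0 and the E2 and polyubiquitin probes left of -1, and with β-Glc Y most probes lie near 0 except RPT6, PAB1 and UBC9.

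Induction was accompanied by low values of the leaf photosynthesis probes, which were taken here to mark the mesophyll of these explants. The 6 probes (a pair of RuBisCO small subunit clones, a chlorophyll a/b-binding protein, a pair of photosystem I proteins and CP12) ranged from -5.50 to -0.97 in K59 and from -4.37 to -0.34 in C15. With β-Glc Y they ranged from -0.26 to 0.27 in K59 and from -0.20 to 0.48 in C15, so that they did not move with RPT6 and PAB1 there. In bulk tissue, fewer cells of a type and less RNA per cell cannot be told apart. Nor can a response to the inducing medium be told apart from one to darkness, temperature or time since excision. These came together in the cultured explants and were not varied separately. The part of this decrease in the induction values of the 3 genes was not tested.

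For each of the 3 genes, the 5 probes with the most similar values were found among the 735 other probes valued in both genotypes for induction and β-Glc Y, by the root mean square difference of the 4 log2 ratios. For RPT6 these were clones E002C11 (difference 0.20, not named), E002B7 (an amino acid permease, 0.22), E002E12 (a nuclear receptor, 0.25), N104B1 (a remorin, 0.29) and N102G9 (an RNA helicase, 0.34). The values of the nearest, E002C11, were 1.13 and 0.28 for induction and -1.11 and -1.54 for β-Glc Y. All 5 had a K59 induction value between 1.11 and 1.37 and a C15 β-Glc Y value between -1.62 and -1.28, all above the -1.89 of RPT6.

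For PAB1 the nearest probes were E016A6 (0.20, not named), E012F12 (similar to LBD41, 0.23), E012E7 (a polygalacturonase inhibiting protein, 0.23), E002F2 (a peroxidase, 0.39) and E010E5 (0.46, not named). E016A6 had 1.01 and 0.14 for induction and 0.93 and 0.96 for β-Glc Y. None of the 5 had a K59 β-Glc Y value as high as that of PAB1, the highest being 1.02 for E012F12. By another rule, 0.575% of the 1044 probes with both β-Glc Y values were, like PAB1, at 1 or above in both genotypes. None of these 5 nearest probes was among them.

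The probes nearest to the E3 ligase were E012H9 (0.21), E011E12 (0.23), E014H4 (0.36) and E002E6 (0.39), none of them named, and E005H8 (a cyanate lyase, 0.46). All 5 had a negative K59 and a positive C15 induction value. E012H9 was the only one of them past the threshold in both, with -1.71 in K59 and 1.10 in C15. At d0, where the ligase is listed at 0.00, E012H9 had 1.04, E011E12 0.86, E002E6 1.75 and E005H8 0.00, and E014H4 had no value.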

How the data were processed

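The authors hybridized cDNA microarrays with pairs of Cy3- and Cy5-labelled samples, with biological replicates and dye swaps. Per their methods, spots that were artefacts, saturated or too dim were left out, each slide was normalized in R after background subtraction (global lowess, then the median of each print-tip block), and probes whose ratio turned over with the dye swap were dropped. The deposited log2 ratios hold 1 value per probe and comparison, and how the hybridizations were combined is not given in the sources used here. The number of arrays limits the precision, and spot intensities were not analysed. Direction follows the sample labels, the first-named sample over the second. The study's supplement holds another processed version of the ratios for named genes, with other values, which was not used here.

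From these values, ranks, counts at a threshold of 1, differences, sums of ratios, plate medians (plate taken as the first letter and digits of the clone name) and root mean square differences were computed in Python 3.11.15 with numpy 2.4.6, pandas 2.3.3 and matplotlib 3.10.9. The self-written steps were tested on simulated data. Gene names come from the supplementary annotation by clone, which names 135 probes. The members and lists were chosen with earlier results of these data known. Genes named are the 3 members, the ubiquitin-proteasome, chaperone and photosynthesis lists, and the 5 most similar probes per member. Alternatives were thresholds of 0.95 and 1.5, median, plate and spread corrections, probes with all 5 values, and the d0 sign.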

Additional observations from a re-analysis of the deposited data

Results flagged for a closer look

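Values of opposite sign in K59 and C15 were found in 15 cases among the probes named, and none of these differences was tested, because a genotype has only 1 value in each comparison. Of these, 6 concern induction. The E3 ligase N104F8 had a K59 minus C15 difference of -2.45 (-1.44 against 1.01). The 5 probes chosen for likeness to it share the pattern, which their choice on these same values favours. Their differences were -2.81 (E012H9), -1.83 (E011E12), -1.87 (E014H4), -1.54 (E002E6) and -1.82 (E005H8).

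The other 9 concern β-Glc Y and are small, all with both values within the threshold. In the ubiquitin-proteasome list, the RING zinc finger protein E012B12 differed by -0.54 and the ubiquitin-conjugating enzyme E010G5 by 0.22. In the leaf photosynthesis list, CP12 (E003D4) differed by -0.55 and a RuBisCO small subunit clone (E007F11) by 0.38. Among chaperones, HSP70 (E012D5) differed by 0.23 and heat shock cognate 70 (E016H11) by -0.82. Among the probes similar to the E3 ligase, E002E6 differed by -0.26, E005H8 by 0.32 and E011E12 by -0.11.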

How the results depend on the processing

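No paired analysis was possible because each comparison has 1 deposited value per probe. Over 4 alternatives for each of the 15 values of the 3 genes, 50 of 60 kept their side of the threshold, and no value past the threshold changed sign. Many of the 15 lay well within the threshold and could hardly change side, so this count says little about those past it. The thresholds of 0.95 and 1.5 leave the value itself as it is, so only the median and plate subtractions could change a sign. At a threshold of 0.95 all 15 were called as before, since none had a size between 0.95 and 1. At 1.5 the call was lost for RPT6 (1.23 in K59 induction, -1.29 in K59 with β-Glc Y), PAB1 (1.25 and 1.06 with β-Glc Y) and the E3 ligase (-1.44 and 1.01 at induction), leaving RPT6 in C15 with β-Glc Y. In the list, 1.5 left 1 probe up in K59 induction, 0 up and 1 down in C15 induction, 0 up and 0 down in K59 with β-Glc Y, and 0 up in C15 with β-Glc Y. Subtracting the median of each comparison took the ligase in C15 to 0.95, and the list to 0 up there.

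Subtracting plate medians took the ligase in K59 to -0.03, and PAB1 to 1.26 in K59 induction and 0.99 in C15 with β-Glc Y, so that 0 of the list were up in the latter. The induction differences between genotypes became 1.21 for RPT6, 1.03 for PAB1 and -1.09 for the ligase (0.90, 0.57 and -2.45 before), and the indirect ratios of the ligase with β-Glc Y over d0 went from -1.60 to -0.03 in K59 and from 0.99 to 1.18 in C15. In K59 induction 3 of the list were then up and 5 down, of which 1 and 5 were called before.

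Dividing by the spread of each comparison gave K59 minus C15 differences, in units of spread, of 0.13 (RPT6), -0.06 (PAB1, sign reversed) and -4.01 (E3 ligase) for induction, and of 3.67, 0.16 and -0.58 for β-Glc Y. After this scaling 3 of the 5 probes most like RPT6 and 2 of those most like the ligase were found again, and 2 for the ligase when d0 was added. Turning the d0 sign put RPT6 at 1.12 for K59 d4 over C15 d4. The cause of these changes was not tested. Over all probes, counts up at 1.5 instead of 1 were 66 instead of 150 (K59 induction), 3 instead of 18 (C15 induction), 1 instead of 7 (K59 Y+ vs. Y-), 1 instead of 13 (C15 Y+ vs. Y-) and 11 instead of 33 (d0), and counts down were 52 instead of 97 (C15 induction), 1 instead of 24 and 6 instead of 48 (β-Glc Y, K59 and C15) and 3 instead of 7 (d0). Among the 467 probes with all 5 values, 77 were up and 120 down in K59 induction (203 down before). In C15 induction 6 were up and 72 down (97 down before). With β-Glc Y 4 were up in each genotype, and 23 were down in K59 and 43 in C15, against 24 and 48 before. The list, whole among these 467, kept its counts.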

Other observations

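Chaperones, which fold or hold proteins that would otherwise be degraded, likewise had induction values on both sides of 0, by family. Both chaperonin probes had high induction values in K59, with 1.28 for cpn60 (E007B3) and 1.45 for the other (E017B4), and stayed within the threshold in C15, at 0.47 and 0.14, against 17.3% of all probes up in K59 and 1.54% in C15. The HSP70 family passed the threshold downwards in both genotypes, as did 10.9% of the 811 probes with both values. HSP70 (E012D5) had -2.23 in K59 and -1.60 in C15, heat shock cognate 70 (E016H11) -3.62 and -2.77, and a dnaK-type chaperone (E004A3) -3.03 and -1.85. With β-Glc Y none of the 4 chaperones valued in K59 and the 5 valued in C15 passed the threshold, the lowest value being -0.63 for heat shock cognate 70 in K59. Few probes did so at all (0.583% up and 2% down in K59, 1.03% and 3.81% in C15). The study chose these genes on the same hybridizations, so the counts are no independent evidence. The plate medians in K59 induction were 0.44 for cpn60 and 0.74 for the other chaperonin, which leaves 0.84 and 0.71 after subtraction.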
